A study of Mus musculus with 18 samples.

Results

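The 39 DNA replication genes described here encode the proteins that mark replication origins, load and start the replicative helicase, copy both strands, join the pieces of the lagging strand and supply deoxynucleotides. They were chosen by symbol, with no measured value in the rule but with earlier results of these data known. All 39 were found among the 14521 named genes of the expression table. RNA-Seq was performed on skin of female SKH-1E mice, an outbred hairless strain, irradiated with a solar simulator from 3 months of age for 100 days, with tissue taken 14 days after the irradiation ended. Each of 6 mice, numbered 2, 3, 7, 8, 9 and 10, gave 3 libraries: 1 of nonlesional skin after the chronic irradiation (CHR), 1 of papilloma (PAP) and 1 of squamous cell carcinoma (SCC). The 18 libraries thus came from irradiated animals only, and unirradiated skin was not analysed here. Each library was one piece of bulk tissue, in which more cycling cells and more RNA per cell cannot be told apart, nor can fewer cells of a type and less RNA per cell.

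Copying a genome starts at origins, where the origin recognition complex, Cdc6 and Cdt1 load rings of the Mcm proteins onto DNA before S phase. Cdc45 and the GINS proteins then turn the ring into a moving helicase, DNA polymerase alpha with primase lays primers, and polymerases delta and epsilon extend them while held by the Pcna clamp. In interfollicular epidermis the cycling cells lie in the basal layer, and most cells above it have left the cycle, so these transcripts are commonly read as a sign of how much of a tissue is cycling.

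Library depth was 15419269 to 21015776 reads in genes. Levels are given as normalised reads, meaning reads recovered from the deposited variance-stabilised values and divided by the authors' size factor of the library. Differences are log2 fold changes of the deposited value plus 1, with the standard error (SE), and calls are limma adjusted p-values under 0.05 over all 14521 genes. Because the deposited scale is compressed at low levels, these differences understate the change of genes with few reads, so ratios of mean normalised reads are given beside them as folds for the members described by library.

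The groups also differed in tissue makeup. Of 9 markers of basal keratinocytes, the layer that holds the cycling cells, 7 were higher in PAP and 5 in SCC than in CHR, and their summed normalised reads ran from 192286 to 293591 in CHR, from 513862 to 829989 in PAP and from 208907 to 588098 in SCC. All 18 skeletal muscle markers were lower in PAP than in CHR, with summed reads of 417887 to 626286 in CHR, 404 to 31562 in PAP and 556 to 209062 in SCC, where the SCC of mouse 10 was the lowest. Also lower in PAP were 9 of 10 adipocyte, 6 of 8 dermal fibroblast, all 8 measured T cell, 6 of 9 measured myeloid and all 8 sebaceous gland markers. Lower in SCC than in CHR were 15 of 18 muscle, 9 of 10 adipocyte and 2 of 8 fibroblast markers. So were 7 of 8 T cell, 5 of 9 myeloid and all 8 sebaceous gland markers, beside 21.4% of all genes. Between SCC and PAP 17 muscle, 3 myeloid, 1 adipocyte and 1 fibroblast marker were higher in SCC, and 1 basal marker was lower. There 5.58% of all genes differed. The myeloid markers S100a8 and S100a9, which stressed keratinocytes also express, were higher in PAP (2.26 and 2.40) and in SCC (2.62 and 2.73); they were named after their values were seen. The 3 markers that differed most between PAP and CHR in each list were Itgb4, Itga6 and Krt14 in the basal list (2.05, 1.96 and 1.76), Ttn, Acta1 and Myh4 in muscle (-8.75, -7.65 and -7.46) and Cfd, Lpl and Plin4 in adipocytes (-6.42, -5.47 and -5.05). They were Dcn, Dpt and Pdgfra in fibroblasts (-5.51, -4.01 and -3.38), Cd4, Cd3g and Cd2 in T cells (-1.97, -1.60 and -1.59), Lyz2, Cd68 and Fcgr3 in myeloid cells (-4.48, -3.04 and -2.96) and Krt79, Far2 and Elovl3 in sebaceous glands (-5.47, -5.29 and -4.71). No marker of these lists was at 0 in every library of a group. The part of these shifts in the differences below was not tested, apart from the comparison with the basal list given beside the main counts.

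E2F factors, the transcription factors that the retinoblastoma protein restrains until a cell commits to S phase, are known for acting at many replication promoters. RefSeq promoter windows (GRCm38.p6, 250 bases before to 50 bases after a start) were searched on both strands for the letters TTTCCCGC, TTTGGCGC, TTTCGCGC and TTTGCCGC, matches that overlap being kept, and for the CCAAT letters of NF-Y. A window was found for 32 members and for 10745 genes in all; Mcm4, Gins1, Gins2, Gins4, Rfc2, Prim2 and Pole had none. The E2F letters were in 14 of the 32 members (43.8%, exact 95% interval 26.4% to 62.3%) and in 4.23% of all genes with a window. In the upstream bases alone they were in 8 members (25%) and in 3.56% of all genes. CCAAT was in 19 of the 32 members (59.4%) and in 42.0% of all genes, so it was common everywhere. The 14 members with E2F letters were Orc1, Cdc6, Cdt1, Mcm3, Mcm5, Mcm6, Mcm7, Gins3, Pola1, Pold1, Pold3, Pole2, Rfc3 and Lig1.

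The stretches around the matches are shown for the 8 members with a match upstream of the start and for Pold3, the member that was not called in any comparison. Each is written 5′ to 3′ on the strand of its gene, with the E2F letters, as searched or in reverse complement, in capitals.
Mcm5: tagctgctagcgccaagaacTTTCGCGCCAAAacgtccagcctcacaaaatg
Mcm6: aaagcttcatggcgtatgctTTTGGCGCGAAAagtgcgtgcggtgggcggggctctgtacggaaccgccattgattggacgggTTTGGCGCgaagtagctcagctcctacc
Cdc6: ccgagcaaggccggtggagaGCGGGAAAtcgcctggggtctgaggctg
Pola1: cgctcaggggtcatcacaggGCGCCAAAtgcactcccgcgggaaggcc
Orc1: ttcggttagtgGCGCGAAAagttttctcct
Mcm7: aatttcgaaccGCGGGAAAcagggtgtcca
Gins3: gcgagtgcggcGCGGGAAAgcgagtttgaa
Rfc3: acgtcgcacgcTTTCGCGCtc
Pold3: agcgaagctgTTTCCCGCcggcgggagc
The Mcm5 stretch is at chr8:75109336-75109387 on the plus strand, and the Mcm6 stretch, with 3 matches, at chr1:128359725-128359835 on the minus strand. Cdc6 is at chr11:98907993-98908040 (plus) and Pola1 at chrX:93632266-93632313 (minus), and none of these 4 stretches overlapped an exon in the GENCODE annotation. The others did overlap annotated exons: Orc1 at chr4:108579416-108579445 (plus), Mcm7 at chr5:138172030-138172059 (minus), Gins3 at chr8:95633507-95633536 (plus), Rfc3 at chr5:151651209-151651229 (minus) and Pold3, downstream of its start, at chr7:100121468-100121495 (minus). A run of letters is a description of the promoter and not a measured binding site.

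**Figure D1:**
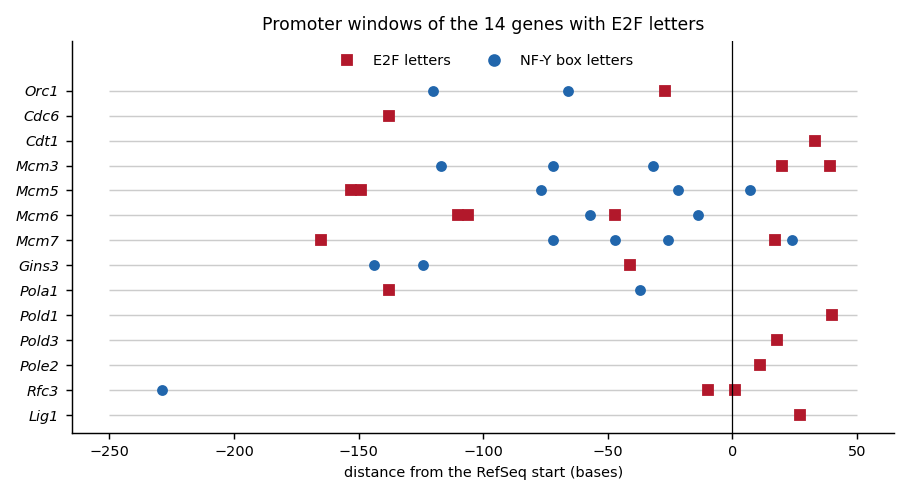
Distance in bases from the RefSeq start, negative upstream, of each match in the promoter windows of the 14 members with E2F letters; squares are E2F letters and circles NF-Y letters, and the 2 windows of Mcm7 are drawn on 1 line. E2F letters lay upstream in 8 members, while Cdt1, Mcm3, Pold1, Pold3, Pole2 and Lig1 had theirs after the start.

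The comparison of PAP with CHR asks what differs between a benign tumour and the irradiated skin beside it. Relative to all genes, 38 of the 39 members were higher in PAP, where 22.8% of all genes were, and none was lower, where 28.7% of all genes were, but relative to the 9 basal keratinocyte markers none was higher, where 0.558% of all genes were, and 11 were lower. The member not called was Pold3, an accessory subunit of DNA polymerase delta. The median difference was 0.87 on the log2 scale and 0.00 over all genes, from 0.04 for Pold3 to 1.45 for Mcm5. For 30 members every PAP library was above every CHR library, as for 14.4% of all genes, and 33 were higher in the PAP of 6 of 6 mice, as were 22.6% of all genes.

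The basal keratinocyte scale subtracts from each library the mean of the log2 values of those 9 markers. The shift is therefore their mean log2 difference, and not their median difference, which was 1.55 between PAP and CHR. On the basal scale 91.4% of all genes were lower in PAP. The members called lower were Mcm6, Orc2, Cdc6, Gins2, Gins3, Gins4, Pcna, Rfc1, Rfc2, Pola2 and Pold3. The median of the members was then -0.39 and that of all genes -1.25. By construction this scale shifts every gene by the same amount, so the distance of the members from the median gene is the same on both scales. The sign of the members' own difference depended on the scale.

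The comparison of SCC with CHR asks the same of the carcinoma. Relative to all genes, 36 of the 39 members were higher in SCC, against a background of 15.1%, and none was lower, against 21.4%, but relative to the basal keratinocyte markers none was higher, where 1.09% of all genes were, and only Pold3 was lower, where 68.6% were. Gins2, Pcna and Pold3 were not called. The median difference was 0.79 and over all genes -0.02, from 0.14 for Pold3 to 1.35 for Mcm5, and on the basal scale 0.06 against -0.75 over all genes. In 27 members every SCC library was above every CHR library, as in 8.55% of all genes, and 35 members were higher in 6 of 6 mice, as were 16.5% of all genes, the others being Mcm6, Gins1, Pold3 and Tyms. As the 6 CHR libraries serve as the reference for papilloma and carcinoma alike, the 2 sets of differences are not independent.

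**Figure D2:**
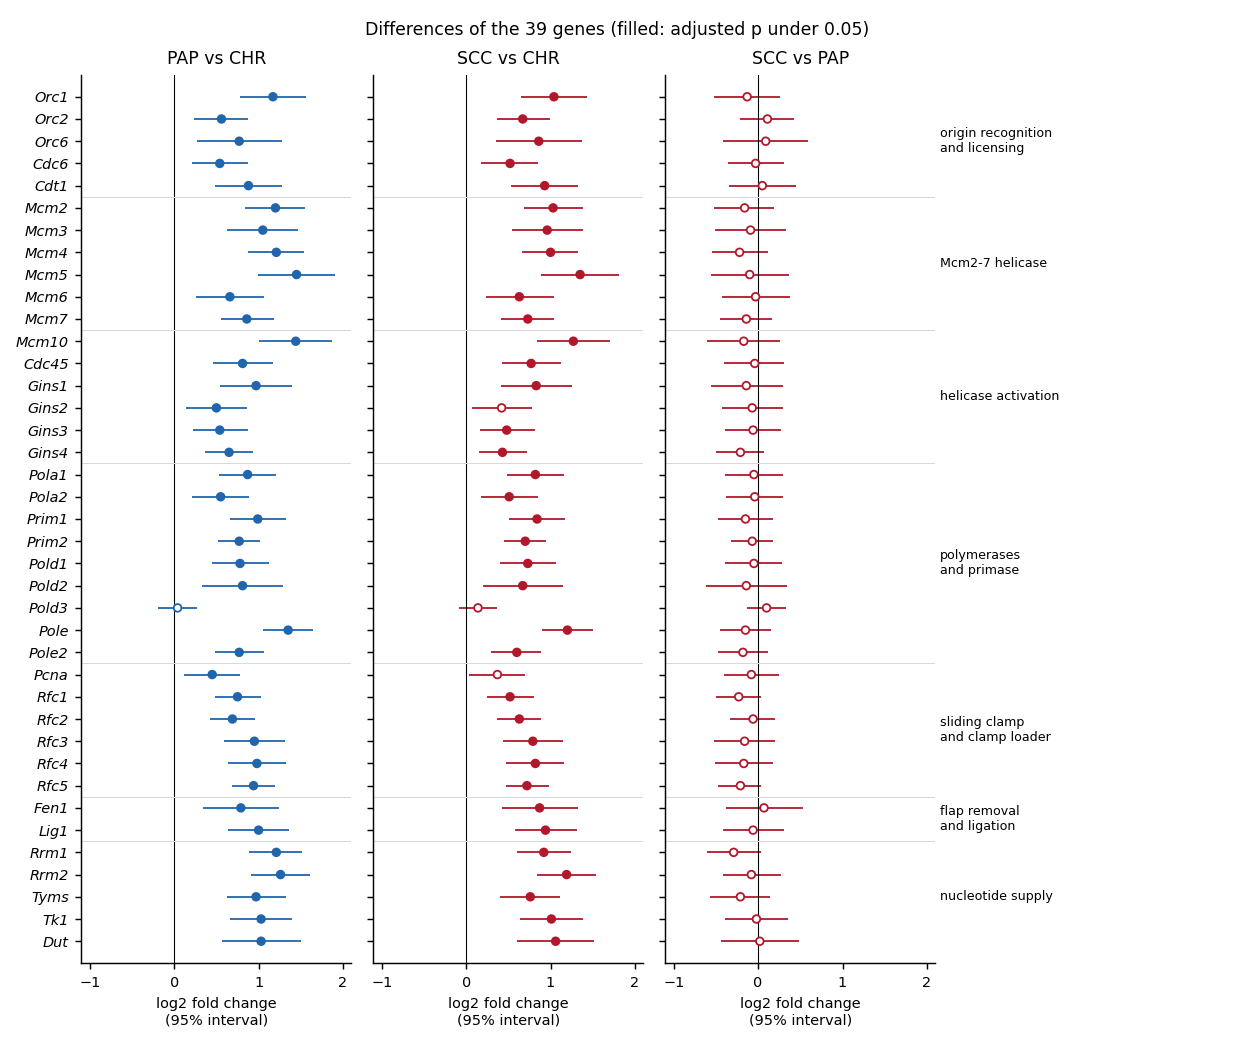
Log2 fold change of the deposited value with its 95% interval for each of the 39 genes, grouped by role, in the 3 comparisons; filled points had a limma adjusted p under 0.05 over all genes. On this scale, relative to all genes, 38 and 36 members were called higher than in CHR, where 22.8% and 15.1% of all genes were. None was called between SCC and PAP, where 5.58% of all genes were. Relative to the basal keratinocyte markers none was called higher than in CHR, where only 0.558% (PAP) and 1.09% (SCC) of all genes were.

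The calls by role given here and below are relative to all genes. Relative to the basal keratinocyte markers no member of any role was higher than in CHR, where 0.558% (PAP) and 1.09% (SCC) of all genes were. Origin recognition and licensing was represented by 5 members. All 5 were higher in PAP and in SCC than in CHR, where 22.8% and 15.1% of all genes were. Their median differences were 0.77 and 0.86. Orc1, the subunit of the origin recognition complex that comes and goes with the cell cycle, had 128.5 to 161.3 normalised reads in CHR with a median of 132.6. In PAP it ran from 313.5 to 474.0 with a median of 398.8, and in SCC from 183.9 to 618.7 with a median of 381.0. No lesion library fell within the CHR range, and the SCC libraries were the most spread. Orc1 was 2.91-fold higher in PAP (log2 difference 1.17, SE 0.18, adjusted p 4.90e-05) and 2.75-fold higher in SCC (1.04, SE 0.18, adjusted p 0.00034, limma).

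Cdc6, the ATPase that loads the Mcm ring together with Cdt1, had the lowest level per length of the 39 members. It ran from 81.1 to 106.5 normalised reads in CHR, from 103.0 to 293.7 in PAP and from 106.0 to 248.5 in SCC, with medians of 93.5, 167.5 and 161.9. The CHR range thus reached past the lowest PAP and the lowest SCC library, although Cdc6 was higher in both lesions of 6 of 6 mice. The folds were 1.84 in PAP (log2 difference 0.54, SE 0.16, adjusted p 0.00905) and 1.76 in SCC (0.52, SE 0.16, adjusted p 0.0179), and the SCC adjusted p was 0.0602 without mouse 9. A near-identical copy, Gm9430, makes the Cdc6 count uncertain. Cdt1, Orc6 and Orc2 differed by 0.88, 0.77 and 0.56 in PAP and by 0.93, 0.86 and 0.67 in SCC. Orc6 ran from 241.5 to 388.1 normalised reads in CHR, 384.6 to 869.4 in PAP and 348.1 to 1209.5 in SCC, and Cdt1, the loader that geminin blocks, from 163.5 to 282.1, 347.5 to 815.9 and 376.4 to 860.8. Of these, Orc6 overlapped between CHR and both lesions, and Orc2 shares 24.0% of its exon length with another gene.

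The Mcm2-7 helicase ring has 6 subunits, and all 6 were higher in both lesions, where 22.8% and 15.1% of all genes were. Their medians were 1.12 in PAP and 0.98 in SCC. Mcm5 differed most of all 39 members on the deposited scale. It ran from 874.8 to 1165.7 normalised reads in CHR (median 993.1), from 1990.5 to 4663.9 in PAP (median 2793.4) and from 1631.2 to 4265.3 in SCC (median 2404.5). The groups did not overlap with CHR, and the highest PAP library came from mouse 10 and the highest SCC library from mouse 3. Mcm5 was 2.95-fold higher in PAP (1.45, SE 0.22, adjusted p 3.32e-05) and 2.82-fold higher in SCC (1.35, SE 0.22, adjusted p 0.000163).

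Mcm6, whose promoter held the most E2F matches, differed least of the ring subunits. It had 1439.4 to 1756.9 normalised reads in CHR (median 1533.3), 1914.9 to 3200.8 in PAP (median 2589.2) and 1498.3 to 3800.2 in SCC (median 2442.8). PAP stood clear of CHR, while the lowest SCC library, that of mouse 7, lay inside the CHR range. Its folds were 1.64 in PAP (0.66, SE 0.19, adjusted p 0.00799) and 1.66 in SCC (0.63, SE 0.19, adjusted p 0.0155), and leaving out mouse 3 or mouse 9 ended the SCC call (adjusted p 0.0548 and 0.076). Of the other subunits, Mcm4 had 1018.8 to 1306.2 normalised reads in CHR, 2243.8 to 3404.4 in PAP and 1506.5 to 3449.6 in SCC, and Mcm7 had 216.1 to 295.9, 386.9 to 693.8 and 341.8 to 621.7. Neither overlapped between CHR and a lesion group. Mcm2, Mcm3, Mcm4 and Mcm7 differed by 1.20, 1.05, 1.21 and 0.86 in PAP and by 1.03, 0.96, 1.0 and 0.73 in SCC.

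**Figure D3:**
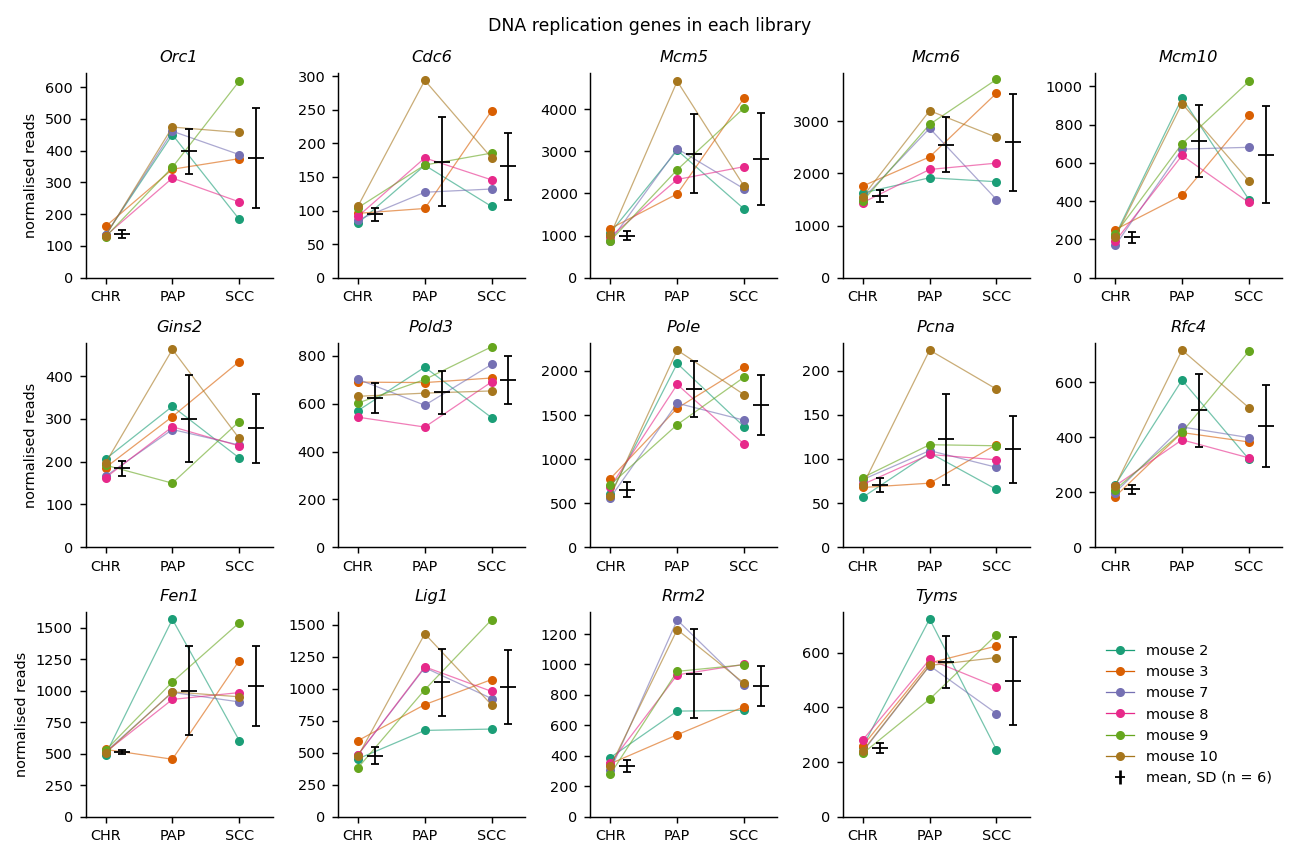
Normalised reads (vertical axis from 0) of 14 members in each library, coloured and joined by mouse, with the mean and SD of each group of 6 libraries beside the points. Relative to all genes 13 of the 14 were called higher in PAP, where 22.8% of all genes were. None was relative to the basal keratinocyte markers, where only 0.558% of all genes were. Pold3 has the 3 groups at one level, and the CHR points lie closest together for most genes.

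Helicase activation covers Mcm10, Cdc45 and the GINS subunits. All 6 were higher in PAP (median 0.73) and 5 in SCC (median 0.63), where 22.8% and 15.1% of all genes were. Mcm10, which binds the ring as it is switched on, had the largest fold of all members. It went from 168.4 to 250.8 normalised reads in CHR (median 215.5) to 430.0 to 938.3 in PAP (median 685.7) and 392.8 to 1025.0 in SCC (median 593.5), without overlap. The folds were 3.38 in PAP (1.44, SE 0.21, adjusted p 1.72e-05) and 3.04 in SCC (1.27, SE 0.21, adjusted p 0.000156).

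Gins2, one of the GINS subunits, was at the other end. It had 162.6 to 206.2 normalised reads in CHR (median 189.1), 149.8 to 462.5 in PAP (median 293.6) and 208.8 to 434.1 in SCC (median 246.7). The PAP of mouse 9 was below every CHR library, and the other 5 PAP libraries were above the CHR library of their mouse. The ratio of means was 1.63 in PAP (0.50, SE 0.17, adjusted p 0.0214) and 1.5 in SCC (0.42, SE 0.17, adjusted p 0.0597, not called). In PAP its adjusted p rose to 0.0637 without mouse 7, 0.0689 without mouse 8 and 0.075 without mouse 10. In SCC it was 0.0222 when the 2 groups were fitted alone, and 70.7% of the Gins2 exon length is shared with Gse1 on the other strand. Cdc45, the helicase cofactor, had 163.8 to 266.4 normalised reads in CHR, 354.7 to 562.2 in PAP and 254.5 to 729.1 in SCC, so that only PAP stood clear of CHR. Cdc45, Gins1, Gins3 and Gins4 differed by 0.81, 0.97, 0.54 and 0.65 in PAP and by 0.77, 0.83, 0.48 and 0.43 in SCC, all called.

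Of the 9 polymerase and primase genes 8 were higher in each lesion, where 22.8% (PAP) and 15.1% (SCC) of all genes were. The medians of the 9 were 0.78 in PAP and 0.70 in SCC. Pole, the catalytic subunit of the leading-strand polymerase epsilon, had the smallest adjusted p of the members named here. It ran from 563.4 to 778.5 normalised reads in CHR (median 643.5), from 1391.1 to 2236.0 in PAP (median 1740.4) and from 1169.7 to 2047.8 in SCC (median 1586.6). Every lesion library exceeded every CHR library by a wide gap. Pole was 2.75-fold higher in PAP (1.35, SE 0.14, adjusted p 8.12e-07) and 2.47-fold in SCC (1.20, SE 0.14, adjusted p 9.60e-06).

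Pold3 was the exception of the module. It had 543.4 to 701.7 normalised reads in CHR (median 616.6), 502.2 to 752.4 in PAP (median 666.0) and 541.3 to 837.6 in SCC (median 698.9). The 3 ranges overlapped, and Pold3 was higher in the PAP of 3 of 6 mice and in the SCC of 5. The ratio of means was 1.04 in PAP and 1.12 in SCC. Its difference was 0.04 in PAP (95% interval -0.19 to 0.27, adjusted p 0.768) and 0.14 in SCC (95% interval -0.09 to 0.37, adjusted p 0.327). Both intervals exclude the median difference of the 39 members. The catalytic subunit of the same polymerase, Pold1, differed by 0.78 (SE 0.16) and 0.73 (SE 0.16), and the subunit Pold2 by 0.81 (SE 0.23) and 0.67 (SE 0.23), all 4 of them called. Pold3 does carry the E2F letters, downstream of its start.

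Pola1, the catalytic subunit of polymerase alpha, and Prim1 and Prim2, the primase subunits, differed by 0.87, 0.99 and 0.77 in PAP and by 0.82, 0.84 and 0.70 in SCC. Pola2 and Pole2, accessory subunits, differed by 0.55 and 0.77 in PAP and by 0.51 and 0.60 in SCC. Pola1 ran from 1046.3 to 1384.7 normalised reads in CHR, 1820.8 to 2620.9 in PAP and 1450.4 to 3453.3 in SCC, and Pola2 from 310.8 to 458.0, 361.0 to 770.8 and 375.4 to 760.6. Pola1 had no overlap between CHR and either lesion, whereas Pola2 overlapped with CHR in both.

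All 6 genes of the sliding clamp and its loader were higher in PAP (median 0.85) and 5 in SCC (median 0.68). The shares of all genes were 22.8% and 15.1%. Pcna, the ring that tethers polymerases to DNA and a common proliferation marker as a protein, was measured at few reads and differed least of the members called in PAP on the deposited scale, though not by fold, where Orc2 (1.56) was lower. It had 56.7 to 79.0 normalised reads in CHR (median 70.7), 72.6 to 223.4 in PAP (median 108.2) and 65.5 to 179.2 in SCC (median 107.0). Every mouse had more Pcna in each lesion than in its CHR skin, while the ranges of the groups overlapped. The mean was 1.74-fold higher in PAP (0.45, SE 0.16, adjusted p 0.0245) and 1.58-fold higher in SCC (0.37, SE 0.16, adjusted p 0.0771, not called). With the mouse as a block the SCC adjusted p was 0.0403, and leaving out mouse 7 or mouse 8 ended the PAP call (0.0515 and 0.0562). A copy, Pcna-ps2, matched the Pcna transcript at 99.2% over 781 bases, so its reads may be split or lost.

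Rfc4, a subunit of the loader that opens the Pcna ring, had 184.2 to 226.7 normalised reads in CHR (median 216.1), 390.2 to 716.3 in PAP (median 427.6) and 320.0 to 712.4 in SCC (median 390.4). Both lesion groups lay wholly above CHR. The folds were 2.36 in PAP (0.98, SE 0.16, adjusted p 8.88e-05) and 2.09 in SCC (0.82, SE 0.16, adjusted p 0.000985). The large subunit Rfc1 had 1602.8 to 1998.4 normalised reads in CHR, 2487.2 to 3720.3 in PAP and 1950.9 to 3144.4 in SCC, where the library of mouse 8 reached into the CHR range. It differed by 0.75 and 0.52, and Rfc2, Rfc3 and Rfc5 by 0.69, 0.95 and 0.94 in PAP and 0.63, 0.79 and 0.72 in SCC. The Rfc5 count is uncertain because a copy, Gm12870, shares 1020 bases with it.

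Fen1 cuts the flaps of lagging-strand fragments and Lig1 seals them. Both were higher in each lesion, where 22.8% (PAP) and 15.1% (SCC) of all genes were. Fen1 was the most even member in CHR, with 492.5 to 535.0 normalised reads (median 514.0), and ran from 456.9 to 1568.4 in PAP (median 989.9) and from 605.7 to 1540.7 in SCC (median 969.7). The PAP of mouse 3 was below every CHR library, and the other 5 were above all of them. The folds were 1.95 in PAP (0.79, SE 0.21, adjusted p 0.00501) and 2.02 in SCC (0.87, SE 0.21, adjusted p 0.00445), and 84.1% of the Fen1 exon length is shared with other genes, mostly the antisense Gm10143, from which its reads cannot be separated here.

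Lig1 had 382.9 to 595.3 normalised reads in CHR (median 478.6), 675.1 to 1430.5 in PAP (median 1079.6) and 685.7 to 1540.7 in SCC (median 952.2), with no overlap between CHR and either lesion. It was 2.2-fold higher in PAP (1.0, SE 0.17, adjusted p 0.000126) and 2.12-fold higher in SCC (0.94, SE 0.17, adjusted p 0.000456).

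All 5 genes of nucleotide supply were higher in both lesions, with medians of 1.03 and 1.01, where 22.8% and 15.1% of all genes were higher. Rrm2 is the subunit of ribonucleotide reductase that is made in S phase. It had 280.5 to 388.9 normalised reads in CHR (median 339.4), 538.4 to 1292.1 in PAP (median 943.5) and 699.2 to 1000.9 in SCC (median 870.6). The lesions lay wholly above CHR, and SCC was the tighter of the lesion groups for this gene. Rrm2 was 2.81-fold higher in PAP (1.26, SE 0.17, adjusted p 7.97e-06) and 2.57-fold higher in SCC (1.19, SE 0.17, adjusted p 4.20e-05), with a pseudogene copy, Gm48455, matching it over 419 bases.

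Tyms, thymidylate synthase, had 231.8 to 281.3 normalised reads in CHR (median 249.0), 430.1 to 723.5 in PAP (median 558.2) and 245.2 to 666.0 in SCC (median 528.9). Its SCC library of mouse 2 fell inside the CHR range and below the CHR library of that mouse. The folds were 2.25 in PAP (0.97, SE 0.17, adjusted p 0.000126) and 1.97 in SCC (0.76, SE 0.17, adjusted p 0.00212), and a pseudogene copy, Tyms-ps, shares 677 bases with it. Rrm1, the most abundant member per length, had 1577.6 to 1964.2 normalised reads in CHR, 3046.7 to 5925.6 in PAP and 2903.9 to 5154.4 in SCC, with a wide gap above CHR. Rrm1, Tk1 and Dut, which encode the large reductase subunit, thymidine kinase and dUTPase, differed by 1.21, 1.03 and 1.03 in PAP and by 0.92, 1.01 and 1.06 in SCC.

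Per length, the levels of the members spanned a wide range. In CHR, Rrm1 was highest at 443 ± 32.0 normalised reads per kb of exon (SD, n = 6), followed by Rfc1 at 361 ± 29.3, Mcm6 at 356 ± 26.6 and Gins4 at 324 ± 18.5. Rfc1 and Mcm6 did not differ beyond their spread. At the low end were Cdc6 at 19.7 ± 2.09, Mcm10 at 42.7 ± 5.84, Orc1 at 45.4 ± 4.04, Pcna at 46.3 ± 5.19 and Gins2 at 47.4 ± 4.44, of which the last 4 overlapped in spread. The levels of Cdc6 and Pcna, which have near-identical copies, are uncertain. So is that of Gins2, which shares 70.7% of its exon length with Gse1. Among the ring subunits, which are present in equal number in the complex, Mcm2 to Mcm6 had 231 to 356 reads per kb and Mcm7 had 82.1 ± 10.4, and a near-identical copy of Mcm7, Gm5487, shares 2157 bases with it. In PAP, Rrm1 was again highest at 1070 ± 251 per kb and Mcm5 followed at 850 ± 272, within its spread.

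**Figure D4:**
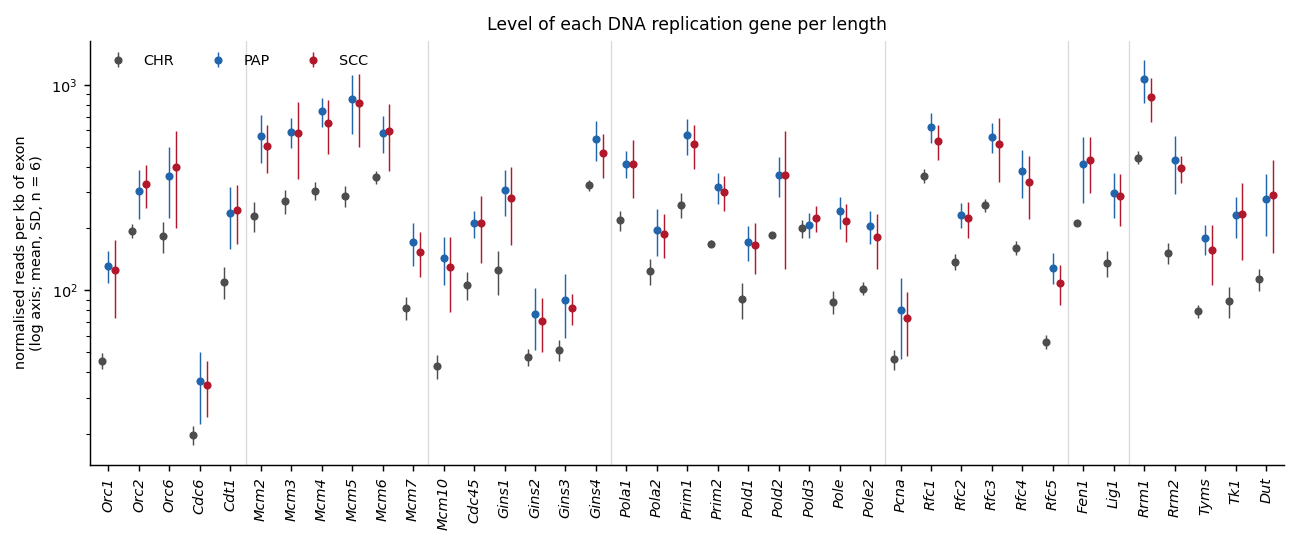
Normalised reads per kb of exon (log axis) of each member in CHR, PAP and SCC, mean and SD of 6 libraries, grouped by role. Rrm1 is highest and Cdc6 lowest in each group, and Pold3 has its 3 points together. The levels are relative to all reads. Relative to the basal keratinocyte markers no member was called higher in PAP or SCC, where only 0.558% and 1.09% of all genes were.

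Taken library by library, the mean log2 level of the 39 members relative to the CHR mean ran from -0.10 to 0.10 in CHR, from 0.73 in mouse 3 to 1.39 in mouse 10 in PAP, and from 0.41 in mouse 2 to 1.47 in mouse 9 in SCC. Within mice, PAP exceeded CHR by 1.02 ± 0.27 (SD, n = 6; 2.03-fold) and SCC exceeded CHR by 0.92 ± 0.37 (1.89-fold), each in 6 of 6 mice. The step from PAP to SCC averaged -0.11 ± 0.52 and was upward in mice 3 and 9 (0.45 and 0.57) and downward in mice 2, 7, 8 and 10 (-0.79, -0.22, -0.20 and -0.44). In mouse 9, 37 of the members were higher in SCC than in PAP, and in mouse 2 only 2 were. Most members thus moved the same way within a mouse, and that way differed between mice. Each of these steps sets 1 library against 1 other, and the share of all genes was not computed. A shift of the whole library therefore cannot be told apart from a shift of the members.

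The libraries at the ends of this range differed in other lists as well. The SCC of mouse 2 was the lowest of its group in 30 members. It had 30 members above the highest CHR library, as 31.4% of all genes were there. The other 5 SCC libraries had 37 to 39 members above the highest CHR library, beside 27.3% to 36.1% of all genes. The SCC of mouse 2 had the most dermal fibroblast and skeletal muscle reads of the SCC libraries (515336 and 209062 summed). The SCC of mouse 9 was the highest of its group in 29 members and had the most reads of the myeloid list (156179 summed, against 20334 to 67702 in the other 5), of which S100a8 and S100a9 made up 142219. The other myeloid markers summed to 13961 there, within the 4719 to 54050 of the other 5. The PAP of mouse 10 was the highest of its group in 25 members and had the fewest dermal fibroblast reads (5161). The PAP of mouse 3 was the lowest in 15 members and had the highest mean log2 level of the basal markers in PAP (1.65). The PAP of mouse 2 had the most muscle reads of PAP (31562), with a member mean of 1.2. The SCC of mouse 10 had the fewest muscle and fibroblast reads of SCC (556 and 18422), with a member mean of 0.95. How often any gene is lowest or highest in these libraries was not computed. The part of these other cells in the order of the libraries was not tested.

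**Figure D5:**
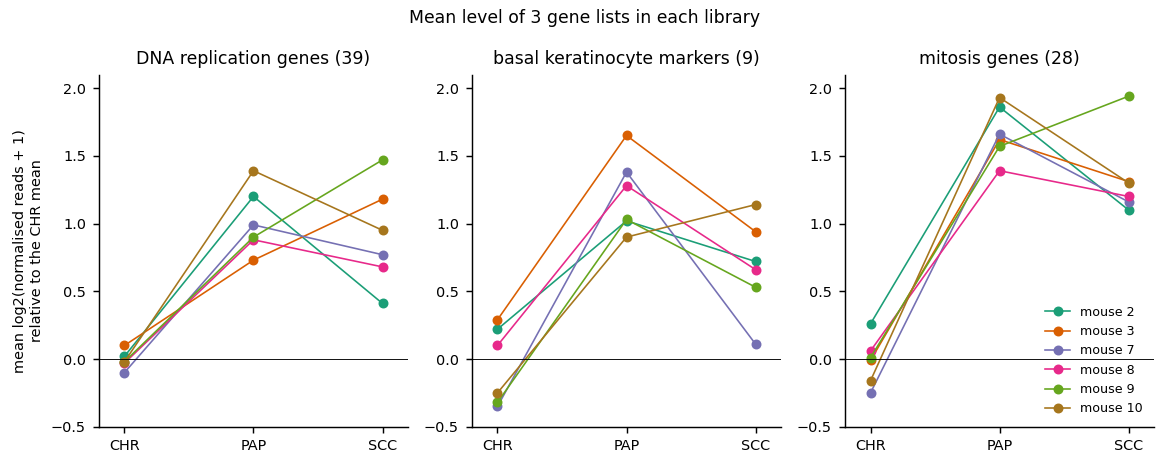
Mean over genes of log2(normalised reads + 1) relative to the CHR mean, for the 39 members, the 9 basal keratinocyte markers and 28 mitosis genes, 1 point per library joined by mouse. The members and the mitosis genes are above every CHR library in each lesion library, and the basal markers reach 0.90 to 1.65 in PAP. Relative to the basal markers no single member was called higher in PAP, where only 0.558% of all genes were.

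The coefficient of variation among libraries had a median over the members of 10.8% in CHR, 22.3% in PAP and 29.9% in SCC, beside 15.3%, 28.6% and 28.7% over all genes. The widest member was Pold2 in SCC (65.0%), where mouse 9 had 1365.4 normalised reads and the next library 619.8. The tightest was Fen1 in CHR (2.93%).

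The comparison of SCC with PAP asks which genes differ between carcinoma and benign tumour. None of the 39 members was called by limma, where 5.58% of all genes were, and none had an unadjusted p under 0.05 with limma, limma-voom, the mouse as a block or the 2 groups fitted alone, where 22.6%, 21.3%, 24.6% and 17.2% of all genes did. Limma-voom and the 2 groups alone called no gene at all after adjustment. The differences ran from -0.29 for Rrm1 (unadjusted p 0.073, adjusted p 0.271) to 0.11 for Orc2, and 33 were below 0, as were 52.9% of all genes. With limma-voom scaled by upper quartile or by total reads 28 and 25 members were below 0, beside 46.0% and 44.4% of all genes. On the deposited scale, which understates changes at low levels, the 95% intervals reached at most -0.62 (Pold2) and 0.59 (Orc6). With limma-voom on the recovered reads they reached -0.70 (Pold2) and 0.66 (Orc6), and all 39 lay within a 2-fold difference in either direction. Both fits estimate the spread of a gene from all 18 libraries, including the CHR libraries, which are not compared here. CHR had the smallest median coefficient of variation over the members (10.8%), below 22.3% for PAP and 29.9% for SCC. The intervals may thus be too narrow. None is given from the 2 groups alone, so the 2-fold bound is not established. Relative to the basal keratinocyte markers 1 member, Pold3, was higher in SCC (0.62, adjusted p 0.0483), where 31.4% of all genes were, and the median of the members was 0.44 against 0.51 over all genes.

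The study sorted genes by a mixed model over the stages, with the mouse as a random term, into those that changed early (between CHR and PAP), late (between PAP and SCC) or stepwise at both. By the same rule, computed anew, 38 members were of the early class and higher in SCC, as were 18.4% of all genes, and Pold3 was in no class. No member was late or stepwise, but without mouse 2 Pold3 was late and Orc2 stepwise. This rule reads the deposited scale relative to all genes, on which the direction stands as above.

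Other replication factors, a list of 44 genes that hold no member, had 30 higher and 2 lower in PAP and 28 higher and 1 lower in SCC relative to all genes, but 0 higher and 27 lower in PAP, and 1 higher (Dbf4) and 8 lower in SCC, relative to the basal keratinocyte markers. Among all genes 22.8% were higher and 28.7% lower in PAP, and 15.1% and 21.4% in SCC. Relative to the basal markers 0.558% of all genes were higher and 91.4% lower in PAP, and 1.09% and 68.6% in SCC. The median differences of this list relative to all genes were 0.52 and 0.51. The lower ones were Tk2, a mitochondrial thymidine kinase, in both lesions (-0.71 and -0.64) and Rrm2b, a p53-induced reductase subunit, in PAP (-0.31), both chosen for naming after their values were seen. The largest were Dbf4, the activator of the Cdc7 kinase that fires origins, at 1.42 (SE 0.21) in PAP and 1.37 (SE 0.21) in SCC; Ticrr, which brings Cdc45 to the ring, at 1.31 (SE 0.16) and 1.09 (SE 0.16); and Recql4, a helicase of the same step, at 1.23 (SE 0.17) and 1.08 (SE 0.17). None of the 44 was called between SCC and PAP, where 5.58% of all genes were.

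Among 25 genes of E2F, Rb and S-phase entry, 15 were higher and 3 lower in PAP, and 13 were higher and 3 lower in SCC, relative to all genes, but relative to the basal keratinocyte markers only E2f7 was higher in PAP, and E2f7 and Ccnd1 in SCC, with 15 and 11 lower. Among all genes 22.8% were higher and 28.7% lower in PAP, and 15.1% and 21.4% in SCC. Relative to the basal markers 0.558% of all genes were higher and 91.4% lower in PAP, and 1.09% and 68.6% in SCC. The E2F genes did not move as 1 group. E2f7, a repressive family member that is itself made in S phase, had 88.9 to 185.3 normalised reads in CHR, 481.5 to 1067.6 in PAP and 310.6 to 812.5 in SCC (log2 difference 2.24 and 1.82, SE 0.21 each), and its relative E2f8 differed by 1.42 and 1.26. E2f4 was higher by 0.69 and 0.68, while E2f2, an activator, differed by -0.80 in PAP and -0.74 in SCC and had 396.5 to 685.3 normalised reads in CHR, 163.0 to 373.6 in PAP and 133.9 to 577.9 in SCC. E2f1, E2f3, E2f5 and E2f6 were not called, with differences of 0.06, 0.26, 0.06 and -0.06 in PAP. The 3 lower genes were E2f2, Rbl2, a relative of the retinoblastoma protein (-0.76 and -0.60, named after its value was seen), and Cdkn1c, a CDK inhibitor, which moved most, from 539.4 to 2152.5 normalised reads in CHR to 3.1 to 54.3 in PAP and 10.7 to 101.6 in SCC. Ccnd1, cyclin D1, was higher by 1.51 and 1.39.

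Genes of mitosis, which are not members, were higher relative to all genes in 28 of 28 cases in PAP (median 1.49) and 28 of 28 in SCC (median 1.19), and relative to the basal keratinocyte markers in 0 and 8 of the 28, with none lower (medians 0.23 and 0.45). Among all genes 22.8% were higher in PAP and 15.1% in SCC. Relative to the basal markers 0.558% of all genes were higher and 91.4% lower in PAP, and 1.09% and 68.6% in SCC. The largest mitosis genes in PAP were Bub1 at 1.80 and 1.56, Top2a at 1.77 and 1.39 and Kif20a at 1.73 and 1.28. Between SCC and PAP 1 of the 28 was called, where 5.58% of all genes were. It was Mki67, a proliferation marker named after its value was seen, which was lower (-0.57, SE 0.13). The median of the mitosis genes was -0.33, while the median of the DNA replication genes was -0.08. This difference between the lists was not tested. Members with E2F letters had a median difference in PAP of 0.87 and those with a window and without the letters 0.95.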

How the data were processed

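The authors sequenced mRNA as paired reads, mapped them to mm10, counted them with HTSeq and, after scaling, deposited 1 table of variance-stabilised values, here treated as a score; the aligner of the mouse reads, versions, annotation and strandedness are not given in the sources used here. Of 14542 rows, 21 named by a number (at most 0.236% of a library's total) were left out. The deposited scores were inverted to reads and size factors (0.835 to 1.178), and 98.9% of values matched a whole number of reads. Most high scores match some whole number whatever the inversion, so the low scores are the stricter check. Of the values up to 100, 99.9% matched. The tests used limma 3.58.1 in R 4.3.3 on log2(score + 1), with all 18 libraries, 1 coefficient per group and Benjamini-Hochberg adjustment over 14521 genes. The planned count test was not used because the table holds no counts; limma-voom on the recovered reads, other scalings, other pseudocounts, a read minimum, the mouse as a block and leaving out each mouse were alternatives. On simulated reads for PAP vs CHR limma recovered 84.5% of 2-fold and 100% of 4-fold changes, with 2.63% of calls false. For SCC vs PAP it recovered 89.7% and 100%, with 5.94% of calls false. The simulation changed only 200 genes and gave all genes and groups 1 dispersion and no mouse effect. The data differ in each of these settings or may do so, so these rates do not carry over to them.

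The members and lists were chosen with earlier results of these data known. Values by library are given for 14 members, in each of 7 roles those with the largest and the smallest difference between PAP and CHR, which include every member not called there; in each other list the 3 genes with the largest difference, and every E2F gene, are named. Mouse numbers in the labels pair libraries of an animal, and same-numbered libraries' deviations correlated from -0.245 to 0.507. Libraries of 1 mouse are separate tissues, so p-values describe the spread among these 6 mice. Copies were transcripts aligned by blastn 2.17.0 over at least 200 bases at 95% identity or more. Promoters are RefSeq's. Exon lengths are from GENCODE.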

Additional observations from a re-analysis of the deposited data

Results flagged for a closer look

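In 12 of 117 groups of 6 libraries, 1 per member and stage, the highest or lowest library stood apart from the rest by more than Dixon's 95% limit, which chance passes in about 1 in 20 groups, or 5.8 here. In CHR, mouse 3 was the highest for Mcm2 (1036.6 normalised reads, next library 780.0), Orc1 (161.3, next 134.9), Pola2 (458.0, next 352.0) and Pold1 (434.0, next 303.2). Mouse 2 was the highest in CHR for Rfc1 (1998.4, next 1747.5) and the lowest for Rfc5 (155.4, next 181.5). In PAP, mouse 10 was the highest for Mcm2 (2900.9, next 1795.9) and Pcna (223.4, next 116.2), and mouse 2 for Orc2 (1678.0, next 995.3). In SCC, mouse 9 was the highest for Gins4 (922.9, next 621.7), Pold2 (1365.4, next 619.8) and Rrm1 (5154.4, next 3301.0). The 4 CHR genes of mouse 3 and the 3 SCC genes of mouse 9 each come from 1 library and are not independent of each other.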

How the results depend on the processing

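The setting that turned the direction of the median member in PAP vs CHR was the level relative to the basal keratinocyte markers. By construction it subtracts the markers' own mean difference. It gave 11 members lower than CHR in PAP, where 91.4% of all genes were, and 1 in SCC, where 68.6% were. In SCC vs PAP it gave 1 higher, where 31.4% of all genes were. The median member on this scale was at -0.39 in PAP vs CHR, with 4 of 39 above 0. In SCC vs CHR the median was 0.06, with 23 of 39 above 0. On it the log2 differences of PAP from CHR were -0.59 for Mcm6, -0.08 for Orc1, -0.71 for Cdc6, -0.76 for Gins2, -0.81 for Pcna, -0.46 for Fen1, -0.26 for Lig1, -0.27 for Rfc4, -1.21 for Pold3 and -0.29 for Tyms, and in SCC vs CHR -0.10 for Mcm6, -0.21 for Cdc6 and -0.59 for Pold3; Gins2 (-0.31) and Pcna (-0.37), not called in SCC to begin with, were below 0 there as well. Above 0 on the basal scale in PAP vs CHR were Mcm5 (0.19), Mcm10 (0.19), Pole (0.1) and Rrm2 (0.01). In SCC vs CHR they were Mcm5 (0.62), Mcm10 (0.54), Pole (0.47), Rrm2 (0.46), Orc1 (0.31), Lig1 (0.21), Fen1 (0.14), Rfc4 (0.09) and Tyms (0.02). The share of members with E2F letters went from 43.8% to 25% in the upstream bases alone, a shorter window. Leaving out 1 mouse at a time gave 36 to 38 members for PAP vs CHR, 31 to 36 for SCC vs CHR, 0 for SCC vs PAP and 36 to 38 in the early class. Of all genes, 44.2% to 49.1% were then called in either direction for PAP vs CHR and 26.9% to 34.8% for SCC vs CHR. The early class then held 34.2% to 38.5% of all genes. The 0 in SCC vs PAP says nothing about the members without mouse 3, 7 or 8, in the 2 groups alone and in every limma-voom fit, since 0.0% of all genes were called there; elsewhere 1.92% to 16.9% were, and 31.4% on the basal scale. With the mouse as a block, which pairs the libraries of an animal, 38, 37 and 0 members were called, adding Pcna in SCC. Of all genes, 52.6%, 38.4% and 9.85% were called there. The 2 groups alone and upper-quartile limma-voom each called 38 in SCC vs CHR, adding Gins2 and Pcna. Pseudocounts of 10 or 0, the read minimum, the other limma-voom scalings, trended moderation and leaving out the SCC of mouse 10, added after seeing the data because it had few muscle reads, left the PAP and SCC counts against CHR at 38 and 36. Without mouse 3 the SCC calls of Mcm6, Orc6, Gins3, Gins4 and Pold2 were lost and without mouse 9 those of Mcm6, Cdc6, Gins4, Pola2 and Pold2, which left 31 in each case. The calls over all genes fell as well, from 36.5% to 28.7% without mouse 3 and to 26.9% without mouse 9. Without mouse 8 those of Gins3 and Pola2 and without mouse 7 that of Pold2 were lost. In PAP, Gins2 was lost without mouse 7, 8 or 10, Pcna without mouse 7 or 8 and Orc6 without mouse 10. Pcna and Cdc6 had the fewest reads of the members in CHR.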
